A study of Mus musculus with 17 samples.

Results

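The response of mouse brain to ischemia and reperfusion was followed here in animals that had all been given the catalytic antioxidant AEOL 10150. It was read as 3 pools labelled ischemia-reperfusion with AEOL 10150 against 3 pools labelled AEOL 10150 control, so 6 of the 17 arrays of the series were compared. The members were chosen by the sample titles. Each array carried RNA pooled from 6 brains, taken from white and grey matter in the territory of the middle cerebral artery. In the treated ischemic pools, 1 h of ischemia was followed by intravenous AEOL 10150 and 6 h of reperfusion. The drug control pools were collected 6 h after the same agent without ischemia. The other arrays hold 3 saline control pools, 3 ischemic pools without the drug and 5 single brains with ischemia and the drug. The labels give no strain, sex, age or dose, and do not say whether the control mice had surgery. Since both groups had been given the drug, their difference is that of ischemia-reperfusion on the background of the drug, not that of the drug.

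For 2 of the 6 arrays the title and the description differ. The description of drug control pool 1 names saline, and that of treated ischemic pool 1 names no drug. Treated ischemic pool 2 is also described as a first replicate. The titles were followed, and the main counts are given again without both arrays. Treated ischemic pools 2 and 3 stood apart in a second way. They had been deposited with a trimmed mean intensity of 140.7 and 187.4, against 2500 on the other 4 arrays, and were multiplied by 17.77 and 13.34 to reach that level. Scaled intensities up to 109.5 were raised to that floor (6.77 on the log2 scale), and between 24.6% and 25.3% of the values of each array lay there. The 3'/5' ratio of actin, which climbs as RNA degrades, was 1.97, 2.14 and 1.15 in drug control pools 1, 2 and 3, and 1.68, 1.29 and 1.34 in the treated ischemic pools. The ranges overlapped, and the highest ratios were those of drug control pools 1 and 2. Its part in the results was not tested. Of the 43 measured genes of a general neuron list, 42 were above the filter on low values. Over all genes on the array 7280 of 8252 were, so this count does not identify the tissue. Arrays carry no read depth. Their number, 3 against 3, limits the precision.

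Interrupted blood flow followed by reperfusion damages proteins, depolarises neurons and activates glia and vessels. Damaged proteins free the factor HSF1, which binds heat shock elements and switches on chaperones such as Hsp70. Calcium entry and stress kinases act on factors already present in the cell and induce immediate early genes, many of them transcription factors, within the first hours. Chemokines and adhesion molecules follow, and attract leukocytes. AEOL 10150 is a metalloporphyrin that removes reactive oxygen species catalytically.

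The promoters of a few of the genes that rose are printed first, because their letters can be read against the chaperone and immediate early results. They are RefSeq sequences of build GRCm38.p6 from 250 bases before to 50 after the start site, in the direction of the gene. Capitals mark matches, on either strand, to 5 motifs searched in all 32851 promoters of the table: a facing pair of heat shock element units (GAANNTTC or TTCNNGAA), the cyclic AMP response element, the AP-1 element, the TATA box and the CCAAT box. The Hsp70 gene promoters lie at chr17:34972107-34972406 and chr17:34959189-34959488 on the minus strand, that of Bag3 at chr7:128523333-128523632 and that of Fos at chr12:85473640-85473939, both on the plus strand.
Hspa1a: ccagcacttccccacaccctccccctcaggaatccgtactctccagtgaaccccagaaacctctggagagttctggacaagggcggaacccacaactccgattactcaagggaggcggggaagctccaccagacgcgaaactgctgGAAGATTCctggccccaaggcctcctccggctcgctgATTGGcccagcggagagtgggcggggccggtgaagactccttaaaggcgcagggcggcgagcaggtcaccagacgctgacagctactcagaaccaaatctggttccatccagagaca
Hspa1b: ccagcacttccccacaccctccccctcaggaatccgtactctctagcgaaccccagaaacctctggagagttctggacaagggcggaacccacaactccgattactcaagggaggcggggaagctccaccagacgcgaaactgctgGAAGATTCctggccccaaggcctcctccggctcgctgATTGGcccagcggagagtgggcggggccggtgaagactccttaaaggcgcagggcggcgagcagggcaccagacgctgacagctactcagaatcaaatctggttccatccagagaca
Bag3: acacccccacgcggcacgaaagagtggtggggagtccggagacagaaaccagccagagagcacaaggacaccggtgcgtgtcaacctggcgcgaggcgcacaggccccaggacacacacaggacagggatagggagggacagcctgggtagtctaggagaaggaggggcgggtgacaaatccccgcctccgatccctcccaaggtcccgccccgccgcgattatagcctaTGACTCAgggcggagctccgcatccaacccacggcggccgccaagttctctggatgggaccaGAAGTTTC
Fos: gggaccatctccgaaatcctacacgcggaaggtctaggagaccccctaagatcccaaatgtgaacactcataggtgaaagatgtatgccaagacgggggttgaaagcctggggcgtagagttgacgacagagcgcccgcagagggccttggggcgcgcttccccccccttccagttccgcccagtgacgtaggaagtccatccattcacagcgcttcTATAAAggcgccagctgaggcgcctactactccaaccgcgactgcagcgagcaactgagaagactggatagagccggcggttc

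The Hspa1a and Hspa1b promoters differed at 4 of 300 bases (98.7% identical), and both held GAAGATTC at the same place. A facing pair of heat shock units was found for 3 of the 8 genes past the threshold that have a promoter in the table (Hspa1a, Hspa1b and Bag3), and in 15.1% of all promoters. In Bag3 it lay after the start site. The TATA box, searched as TATAAA, was found for Fos and Gadd45g and in 13.6% of all promoters. The AP-1 element, searched as TGAGTCA, was found for Bag3 and in 5.2% of all. The CCAAT box, searched by the letters of its name, was found for 5 of the 8 genes and in 37.4% of all. The cyclic AMP response element, searched as TGACGTCA, was found for none of the 8 and in 1.79% of all. Only these full letters were searched. Shorter runs of them, such as the tgacgt printed in the Fos promoter, were not counted. No motif overlapped another in these 4 promoters. These are matches of letters, not measured binding.

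After ischemia-reperfusion with the drug, chaperones of the Hsp70 system and a set of immediate early genes rose. In the linear model (limma), 9 of 10259 probe sets passed a Benjamini-Hochberg adjusted p of 0.05, which is 0.0877% of those tested. All 9 were higher in the treated ischemic pools. None passed in the lower direction, where 141 probe sets had an unadjusted p under 0.05, against 212 in the higher direction. The 9 were Hspa1b, Hspa1a, Dnajb1, Bag3, Fos, Atf3, Egr1, Nr4a1 and Gadd45g. Their values in the treated ischemic pools lay above those of all drug control pools, which was so for 3.75% of probe sets tested, while 3.64% lay below. The count depended on single pools. It was 6, 5 and 1 without drug control pool 1, 2 or 3, and 1 without any 1 of the treated ischemic pools. Atf3 passed in each of these. Without both arrays whose title and description differ, 3 probe sets passed, those of Atf3, Hspa1a and Hspa1b. A fit of the 6 arrays alone called 4, of which 2 (Atf3 and Hspa1a) were among the 9.

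**Figure D1:**
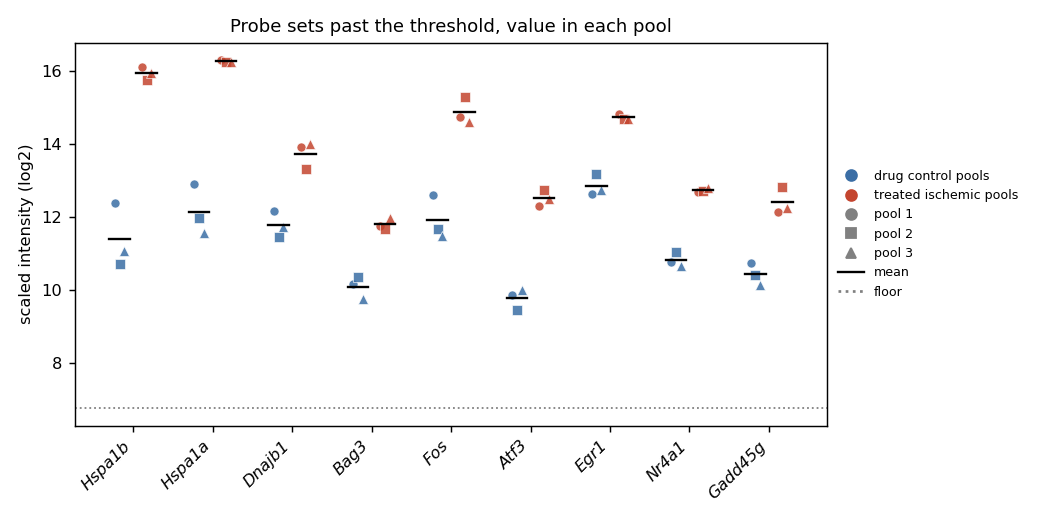
Scaled intensity (log2) of the 9 probe sets past the threshold in each drug control pool and each treated ischemic pool; bars are group means and the dotted line is the floor. The 3 treated ischemic values of each gene lie above all 3 drug control values, and drug control pool 1 is the highest control for Hspa1b, Hspa1a and Fos.

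The largest differences among these 9 were in the inducible Hsp70 genes, whose products refold or hold damaged proteins. Hspa1b (probe set 100946_at) read 5392, 1686 and 2162 in drug control pools 1, 2 and 3 and 70942, 55239 and 63667 in the treated ischemic pools, as scaled intensities. The lowest treated pool was thus far above the highest control pool, and control pool 1 was itself above the other controls. The log2 difference was 4.54 (SE 0.51, n = 3 and 3 pools, limma adjusted p = 0.00931), a 23.3-fold rise. Hspa1a (93875_at) read 7645, 4081 and 3047 in the drug control pools and 80944, 77849 and 78475 in the treated ischemic pools. The treated pools were close to each other and the controls again spread, with pool 1 highest. Its log2 difference was 4.12 (SE 0.43, limma adjusted p = 0.00786), or 17.3-fold. The Hspa1a and Hspa1b transcripts are near copies, so how the signal divides between their probe sets is uncertain.

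Partners of Hsp70 rose as well. Dnajb1, the Hsp40 co-chaperone that stimulates the Hsp70 ATPase, read 4613, 2830.2 and 3396 in the drug control and 15473, 10188 and 16329.7 in the treated ischemic pools. No values overlapped, and treated pool 2 was the lowest of its group. The log2 difference was 1.95 (SE 0.28, limma adjusted p = 0.0385). Bag3, a nucleotide exchange factor of Hsp70 that directs clients to autophagy, read 1164, 1321 and 869 in the control and 3502, 3273 and 4050.4 in the treated pools. It rose by 1.71 (SE 0.24, limma adjusted p = 0.0385), with the 3 treated pools close together. A second Bag3 probe set had a like log2 difference of 1.62 with an adjusted p of 0.808.

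The transcription factors past the threshold were Fos, Atf3, Egr1 and Nr4a1. Fos, a subunit of AP-1, read 6296, 3290.1 and 2859.7 in drug control pools 1, 2 and 3 and 27434, 39858 and 25012 in the treated ischemic pools. Control pool 1 and treated pool 2 were the highest of their groups, and the groups did not overlap. The log2 difference was 2.95 (SE 0.39, limma adjusted p = 0.0271). Atf3, a stress-induced factor of the ATF/CREB family, read 945, 709.5 and 1028 in the control and 5084, 6943 and 5801 in the treated pools. Both groups were tight, and its adjusted p was the lowest of all probe sets, at 0.00365 for a log2 difference of 2.74 (SE 0.24). Another Atf3 probe set (104156_r_at) gave 2.65 with an adjusted p of 0.147, its control pool 2 lying at the floor.

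Egr1, a zinc finger factor induced by neuronal activity and growth factors, was already high in the drug controls at 6403, 9391 and 6866 and read 29104, 26497 and 26492 in the treated ischemic pools. It rose by 1.88 (SE 0.20, limma adjusted p = 0.00786), with treated values that differed less than those of the controls. A dim second Egr1 probe set, with both group means near the floor, showed a log2 difference of -0.38 and an adjusted p of 1. Nr4a1, an orphan nuclear receptor, read 1749, 2108 and 1619.5 in the drug controls and 6634, 6757 and 7146 in the treated pools. It rose by 1.92 (SE 0.24, limma adjusted p = 0.0181) without overlap. Gadd45g, a stress sensor that acts on the p38 and JNK kinases, read 1737, 1384 and 1136 in the control and 4573, 7311 and 4919 in the treated pools. Treated pool 2 was the highest, and the log2 difference was 1.97 (SE 0.24, limma adjusted p = 0.017).

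Treated ischemic pool 1 was deposited on the same scale as the drug controls, so it gives a comparison that needs no rescaling. Against the mean of the drug control pools it differed by 4.72 for Hspa1b, 4.15 for Hspa1a, 2.81 for Fos, 2.52 for Atf3, 2.13 for Dnajb1, 1.97 for Egr1, 1.87 for Nr4a1, 1.71 for Gadd45g and 1.67 for Bag3, all on the log2 scale and without a test. Each of the 9 was also higher in this pool, the one whose description names no drug. It is 1 of the 3 treated pools from which the 9 were called, so it is no separate support.

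The wider heat shock list held 38 genes tested. Of these, 4 rose and none fell at the adjusted threshold, 29 lay above 0 and 9 below. The median log2 difference was 0.20, against -0.017 over all 7280 genes tested. Over those genes 3445 lay above 0 and 3829 below, which is the background for such counts in every list. In 11 genes the treated pools lay above every control pool, and in 2 below, against 4.30% above and 4.01% below over all genes tested, the background for such counts in every list. Hsph1, the Hsp110 exchange factor of Hsp70, read 23149, 22915 and 20368 in the control and 38926, 41270.5 and 42072 in the treated pools, a log2 difference of 0.88 (SE 0.15, limma adjusted p = 0.132). Every treated pool was above every control pool. Serpinh1, the collagen chaperone of the endoplasmic reticulum, read 818, 630.4 and 718 in the control and 1988, 1677 and 3578 in the treated pools, with a difference of 1.67 (adjusted p = 0.148) and treated pool 3 the highest. The mitochondrial chaperonin pair did not overlap between groups either. Hspd1 read 15164, 15667 and 13844 in the control and 20930.3, 21635 and 19949 in the treated pools, a difference of 0.49, and Hspe1 read 7392, 10656 and 6768 in the control and 12991, 17687 and 14322 in the treated pools, a difference of 0.88. The constitutive Hspa8 had a difference of 0.18 with overlapping groups and Hsp90aa1 one of 0.34. Subunits of the cytosolic chaperonin ran from -0.53 for Cct6a and -0.11 for Cct7 to 0.28 for Cct2. Values thus varied widely within the list.

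Immediate early genes had a list median of 0.75 over 35 genes tested. Of these, 5 rose (Fos, Atf3, Egr1, Nr4a1 and Gadd45g), none fell, 29 lay above 0, and 20 had treated pools above every control pool, with none below. The 3 treated pools gave list medians of 0.79, 0.81 and 0.59 against the drug control mean, and the median was 0.80 without the 2 arrays of unlike labels. Gadd45b, the sister of Gadd45g, read 669, 664 and 572 in the control and 3407, 4555 and 4740.1 in the treated pools. This was a wide gap between tight groups, at 2.73 (SE 0.43), and just missed the threshold (limma adjusted p = 0.0788). Other AP-1 subunits were higher without passing. Jun read 2870.2, 2354 and 2096 in the control and 5739, 6451 and 5151 in the treated pools, a difference of 1.25 (adjusted p = 0.134). Junb read 2456, 2070.4 and 2922 in the control and 6576, 5179 and 9303 in the treated pools, a difference of 1.47 (adjusted p = 0.19). Fosb read 3330.2, 3323 and 3814 in the control and 12589, 8953 and 9959 in the treated pools, a difference of 1.58 (adjusted p = 0.165). In each of the 3 the groups were apart. Jund, a subunit that is expressed at rest, differed by 0.30, Fosl1 by 0.14 and Fosl2 by -0.005.

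The list also holds feedback regulators. Dusp1, a phosphatase that switches off p38 and JNK, read 6988, 5528 and 6296 in the drug control and 10285, 12751 and 9986 in the treated ischemic pools, a difference of 0.81 (limma adjusted p = 0.476). Dusp6, the phosphatase of ERK, had 0.90 and treated pool 1 as its highest value (7855, 4594 and 5074 against 3569, 2444 and 3224 in controls). Ier2 had 1.57, Ier3 1.19, Klf10 0.93 and Klf4 1.06, each with groups that did not overlap and adjusted p values between 0.224 and 0.734. Ptgs2, the inducible cyclooxygenase, read 567, 648 and 219.7 in the control and 1526, 1308 and 824 in the treated pools, a difference of 1.45 that was 0.47 with the floor at the 50th percentile and 0.96 without drug control pool 3. Rgs2 overlapped between groups at 0.93. Members below 0 included Homer1 (-0.62), Nr4a2 (-0.19), a close relative of Nr4a1, and Per1 (-0.17).

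**Figure D2:**
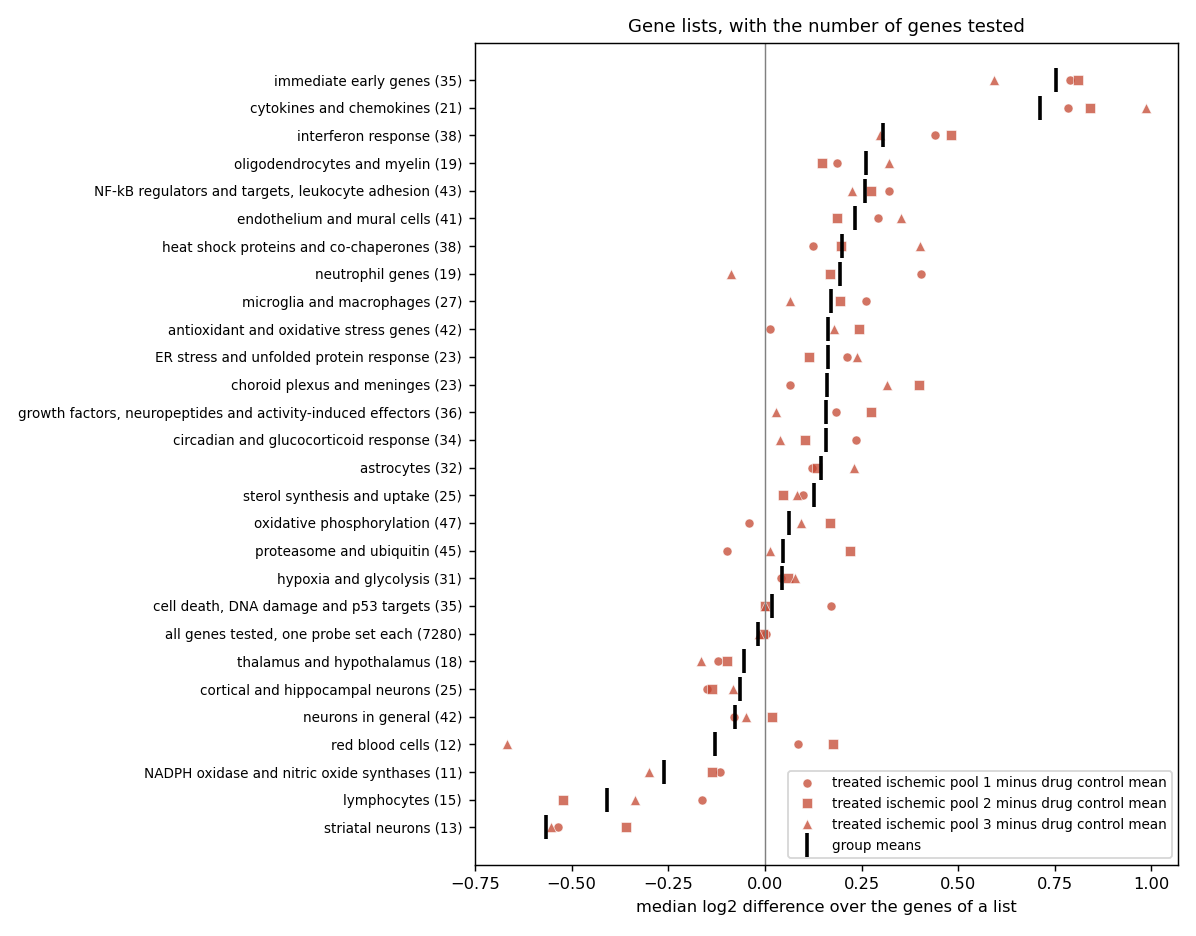
Median log2 difference over the genes of each list, for each treated ischemic pool against the mean of the drug control pools (points) and for the group means (bars), with the number of genes tested in brackets. The bars of immediate early genes and cytokines stand at 0.75 and 0.71, that of striatal neuron genes at -0.57 and that of all genes at -0.017; the order of lists with like medians differs between pools.

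Cytokines and chemokines had a list median of 0.71 over 21 genes. It was 0.76 with quantile normalization and 0.83 without the 2 arrays of unlike labels, where immediate early genes had 0.75 and 0.80, so the order of the 2 lists depends on the setting. None passed the threshold. In 19 genes the difference was above 0, and in 8 the treated pools lay above every control pool. Of 33 genes of this list on the array, only these 21 passed the filter on low values, against 7280 of 8252 overall. A dim gene that is bright only in ischemic pools passes that filter, while a gene dim in all pools does not. These counts and the median can thus partly follow from the filter. Ccl2, which attracts monocytes, read 619, below the floor and 264 in drug control pools 1, 2 and 3 and 2031, 2455 and 2328 in the treated ischemic pools. The treated pools were alike, while the controls ran from the floor to the value of pool 1. The log2 difference of 3.11 (SE 0.59, limma adjusted p = 0.165) depends on where the floor is set, and was 1.39 with the floor at the 50th percentile. Cxcl1, a neutrophil attractant, read 566, below the floor and 464 in the control and 2318, 3253 and 1562 in the treated pools on its brighter probe set, a difference of 2.89 (adjusted p = 0.426). With the floor at the 50th percentile it was 1.39, and the second Cxcl1 probe set gave 2.07 at the usual floor. Ccl3 was measured above the floor in all pools, at 856, 1087 and 1105 in the controls and 2994, 3394 and 2684 in the treated pools. Its groups were tight and apart, with a difference of 1.58 (SE 0.30, adjusted p = 0.166).

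Further chemokines were brighter in the treated pools, from controls that lay partly at the floor. Ccl4 read 879, below the floor and below the floor in the control and 1287, 1622 and 1545 in the treated pools, and its difference of 2.75 had an SE of 0.92 and an adjusted p of 1. With the floor at the 50th percentile that difference was 0.76. Ccl7 read 261, below the floor and below the floor in the control and 319.8, 382 and 335 in the treated pools, and Ccl9 read 336, below the floor and 163 in the control and 584, 474 and 1162 in the treated pools. Here too drug control pool 1 was the highest control in each case. The differences of Ccl7 and Ccl9 were 1.24 and 1.915, and 0.12 and 1.09 with the floor at the 35th percentile. Il1a, an alarm cytokine of injured cells and microglia, read 252, below the floor and 135 in the control and 608, 355 and 608 in the treated pools, a difference of 1.72, or 0.69 with the floor at the 35th percentile. Cxcl10 had 2.17, Cxcl2 1.14 and Il6 1.03, all with overlapping groups. The members below 0 were Csf3 (-0.66) and Cx3cl1 (-0.18), the latter a chemokine made by neurons.

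**Figure D3:**
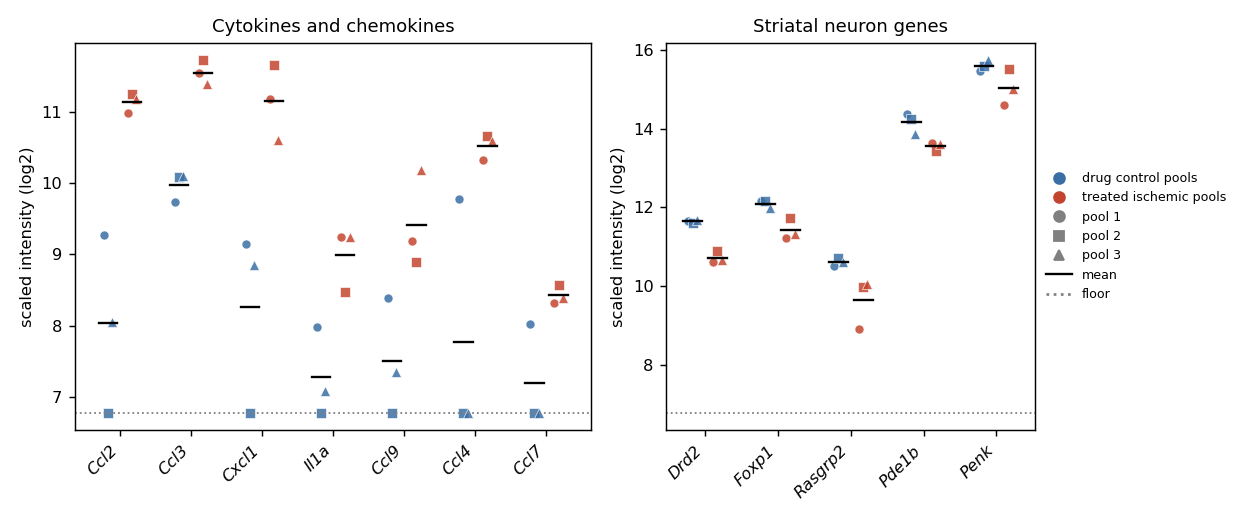
Scaled intensity (log2) in each drug control and treated ischemic pool for the named cytokines and chemokines (left) and the named striatal neuron genes (right), with group means as bars and the floor as a dotted line. Several chemokine controls lie at the floor and pool 1 is the highest control for Ccl2, Cxcl1, Ccl4 and Ccl7, while 4 of the 5 striatal genes have treated values below every control; the values of Penk overlap.

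In the list of NF-kB regulators, targets and adhesion molecules none of 43 genes passed, 31 lay above 0, 11 were above without overlap and 1 below, and the median was 0.26. Socs3, the inhibitor of cytokine signalling through STAT3, read 2411, 1230.5 and 979.9 in the control and 5281, 4385 and 4484 in the treated pools, a log2 difference of 1.72 (SE 0.37, limma adjusted p = 0.301). Control pool 1 again stood above the other controls, and all treated pools above it. Icam1, the leukocyte adhesion molecule of endothelium, read 569.9, 224 and 179 in the control and 814, 581 and 608 in the treated pools, a difference of 1.22. Procr, the endothelial protein C receptor, was tight in both groups at 464, 576 and 507 in the control and 917, 1077 and 985 in the treated pools, a difference of 0.95 (adjusted p = 0.346). Tnfaip6, which binds hyaluronan at inflamed sites, had 1.44, Nfkbiz, an inducible NF-kB cofactor, 0.89 and Plaur, the urokinase receptor, 1.82. These 3 and Procr depend on the floor, and with it at the 50th percentile were 0.045 for Tnfaip6, 0.30 for Nfkbiz, 0.44 for Plaur and 0.19 for Procr. Plaur was 1.02 without drug control pool 3. Cd14, the lipopolysaccharide co-receptor of microglia, read 6277, 5002 and 4430.0 in the control and 12675, 11854 and 10532 in the treated pools, a difference of 1.17 (adjusted p = 0.253) without overlap.

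No gene passed in the list of the unfolded protein response, where 14 of 23 lay above 0 and the median was 0.16. Ppp1r15a, the phosphatase subunit that restores translation after stress, read 1191, 425 and below the floor in the control and 2114, 2571 and 2831 in the treated pools. Its treated pools were alike and its controls spread widely, so that the difference of 2.71 carried an SE of 0.98 and was 1.37 with the floor at the 50th percentile. Hspa5, the lumenal Hsp70, read 14145, 12985 and 11978 in the control and 17612, 18158 and 17619.8 in the treated pools, a difference of 0.45, and the sensor Atf6 read 1787, 2774 and 1875 in the control and 1419, 1597 and 1458 in the treated pools, a difference of -0.50, both without overlap. Atf4 differed by 0.41, Ddit3 by 0.31 and Xbp1 by 0.25. Among 35 genes of cell death and DNA damage, 1 rose (Gadd45g, also an immediate early gene), 20 lay above 0 and the median was 0.019. Gadd45a, the third member of that family, read 573, 793 and 493 in the control and 1628, 1972 and 1842 in the treated pools, a difference of 1.57 (limma adjusted p = 1).

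Genes of the antioxidant defence were of interest because every pool had been given an antioxidant. None of 42 passed. Here 34 lay above 0 and 8 below, against 3445 above and 3829 below over all 7280 genes tested. The median was 0.16, and 4 genes were above without overlap. Treated ischemic pool 1 alone gave a list median of 0.013, while pools 2 and 3 gave 0.24 and 0.18. Gpx3, the secreted glutathione peroxidase, read 2159, 2268 and 2694 in the control and 3315, 3113 and 4268 in the treated pools, a log2 difference of 0.58 (SE 0.21, limma adjusted p = 1). Txnip, the inhibitor of thioredoxin, had 0.61 without overlap, and 0.40 without drug control pool 1. Slc7a11, the cystine transporter, lay partly at the floor and had 0.87. Heme oxygenase Hmox1 differed by 0.34, the superoxide dismutases Sod1, Sod2 and Sod3 by 0.063, 0.017 and 0.067, catalase (Cat) by 0.19 and metallothioneins Mt1 and Mt2 by 0.17 and 0.23. In the enzymes that make reactive species, none of 11 genes of the NADPH oxidase and nitric oxide synthase list passed, 8 lay below 0 and the median was -0.26. The inducible synthase Nos2 read 219.8, 300.2 and 276 in the control and 188, 231 and 133 in the treated pools, overlapping, and xanthine dehydrogenase Xdh read 747, 1034 and 881 in the control and 630.0, 616 and 715 in the treated pools, lower in each treated pool by a mean of 0.43.

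Markers of blood cells and glia were examined in the same way, and no gene of these lists passed the threshold. Interferon response genes lay above 0 in 31 of 38, with a median of 0.31 and 9 genes above without overlap. Ifit3 read 2407, 957 and 1143 in the control and 4107, 2443 and 3719.5 in the treated pools, a log2 difference of 1.27, and the GTPase Irgm1 993, 813 and 574 in the control and 1977, 1141 and 1211 in the treated pools, a difference of 0.85. In microglia and macrophages 20 of 27 genes lay above 0 (median 0.17). The summed intensity of that list ran from 97988 to 105679 in the treated pools and from 80987 to 91579 in the controls. In neutrophil genes 13 of 19 lay above 0 (median 0.20), none was apart between groups, and the 3 treated pools gave medians of 0.40, 0.17 and -0.089. S100a8, abundant in neutrophils, differed by 0.55, and Mpo, an enzyme of their granules, by -0.36. For lymphocyte genes 11 of 15 lay below 0 (median -0.41), with summed intensities of 62105 to 73768 in treated and 63226 to 73060 in control pools.

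Astrocyte genes lay above 0 in 26 of 32 (median 0.15) and myelin genes in 16 of 19 (median 0.26), with 4 genes apart in each list. Id3 read 1655, 1665 and 1419 in the control and 2363, 3077 and 2972 in the treated pools, the largest difference of the named astrocyte genes at 0.82, and Mog, a myelin protein, 1815, 2239 and 2113 in the control and 2664, 2482 and 3641 in the treated pools, at 0.50. Endothelial and mural genes lay above 0 in 29 of 41 (median 0.23), with 4 above and 3 below without overlap, where 4.30% and 4.01% of all genes tested lay so. Choroid plexus and meningeal genes lay above 0 in 16 of 23 (median 0.16). Their summed intensity was 120546 to 138879 in treated pools and 110715 to 113511 in controls, without overlap, and Ttr, the transthyretin of choroid plexus, read 4284, 6089 and 4357 in the control and 6291, 9489 and 8070.1 in the treated pools. Red blood cell genes had a median of -0.13 over 12 genes. The globins stood apart from that median. Hbb-b2 read 222, 193 and 145 in the control and 899.9, 1396 and 298 in the treated pools, and Hba-a1 read 2788, 4378 and 2006 in the control and 8200.5, 8912 and 3060.5 in the treated pools. Treated pools 1 and 2 were the high ones in both, and pool 3 lay near the controls. The log2 difference of Hbb-b2 was 1.97, and 0.25 with the floor at the 50th percentile. The part that different shares of these cells and of blood in the dissected tissue play in the other results was not tested.

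Genes of striatal neurons had a list median of -0.57 over 13 genes. None passed the threshold. There were 12 below 0, and 4 lay below every control pool. Drd2, the dopamine receptor of the indirect pathway, read 3240.5, 3111 and 3251 in the drug control and 1557, 1878 and 1613 in the treated ischemic pools. Both groups were tight and far apart, and the log2 difference was -0.93 (SE 0.25, limma adjusted p = 0.62). Foxp1, a transcription factor of medium spiny neurons, read 4546, 4542 and 4051 in the control and 2395, 3409.5 and 2569.5 in the treated pools, a difference of -0.67. Rasgrp2, a Rap exchange factor, read 1466, 1672 and 1562 in the control and 482, 1002 and 1063 in the treated pools, with treated pool 1 lowest, a difference of -0.97, or -0.60 without that pool. Pde1b, a phosphodiesterase driven by calmodulin, read 21018, 19236 and 15013 in the control and 12795, 10949.7 and 12425 in the treated pools, a difference of -0.60. Penk, which encodes enkephalin, read 45013, 49649 and 54521 in the control and 24635, 46579 and 32709 in the treated pools, where treated pool 2 reached into the control range. Other members had -0.74 (Pdyn), -0.58 (Tac1), -0.25 (Rgs9) and, as the 1 member above 0, 0.41 (Dlx6). The list median was -0.48 without the 2 arrays of unlike labels, where that of lymphocyte genes was lower at -0.52. The pools' list medians were -0.54, -0.36 and -0.55, and the summed intensities 51284 to 78345 in treated and 88174 to 95259 in control pools. Penk, whose own values overlapped between groups, made up a large part of these sums. In such bulk tissue, fewer cells of a type, less RNA per cell and a shift in dissection cannot be told apart.

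Other neuronal lists lay closer to 0. Cortical and hippocampal genes had a median of -0.065 over 25 genes, with 16 below 0 and 4 below without overlap, and summed intensities of 217043 to 230701 in treated and 244697 to 254860 in control pools. Gria3, a glutamate receptor subunit, read 2374, 2662 and 2873 in the control and 2266, 1407 and 2021 in the treated pools, Calb1 (calbindin) 6131, 6836 and 6185 in the control and 5447, 5801 and 3576 in the treated pools, and Wfs1 10924, 10146 and 8795 in the control and 8534, 7034 and 7986 in the treated pools. Each was lower in all treated pools, by 0.50, 0.40 and 0.34 on the log2 scale. The general neuron list had a median of -0.077 over 42 genes and overlapping sums. Thalamic and hypothalamic genes had a median of -0.055 over 18. Tcf7l2, a Wnt pathway factor of thalamus, read 2651, 2956 and 3764 in the control and 479, 2585 and 2119 in the treated pools, so pool 1 made most of its difference of -1.16, which was -0.40 without that pool.

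Growth factors and neuropeptides lay above 0 in 24 of 36 genes (median 0.16) and none passed. Bdnf, the neurotrophin, read 7402, 12747 and 9253 in the control and 15061, 23061 and 15490.5 in the treated pools, a log2 difference of 0.87. Treated pool 2 was highest and the groups did not overlap. Inhba, an activin subunit induced by activity, read 731, 630.0 and 707 in the control and 1114, 911 and 1121 in the treated pools, a difference of 0.60, and Sst (somatostatin) read 21731, 20620.5 and 23186 in the control and 24501, 32269.9 and 37356 in the treated pools, a difference of 0.50. Metabolic lists lay nearer to the median of all genes. Oxidative phosphorylation had a median of 0.063 over 47 genes, hypoxia and glycolysis 0.043 over 31, proteasome and ubiquitin 0.047 over 45 and sterol synthesis 0.13 over 25. The glycolytic Ldha read 23816, 25324 and 22458 in the control and 30379, 30086 and 30187 in the treated pools, with very tight treated pools and a difference of 0.34. In the clock and glucocorticoid list (median 0.16, 34 genes) Fkbp5, a target of glucocorticoids, read 7698, 9589 and 8709.5 in the control and 5929, 5108 and 6045 in the treated pools, lower by 0.60, and the clock repressor Cry1 read 2283, 2836 and 2765 in the control and 3349, 3724 and 3917 in the treated pools, a difference of 0.48. None of these lists held a gene past the threshold.

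Among the probe sets that did not pass, 131 lay higher and 71 lower with an unadjusted p under 0.05, no overlap and at least 5 of 6 values above the floor. The largest differences above 0 were those of Ccl2, Cxcl1, Gadd45b, Ppp1r15a and the second Atf3 probe set, described above, so that members of the stress and chemokine lists led. The others include Ccn1, a matricellular immediate early gene, which read 256, 481 and 644 in the control and 1578, 2345 and 2197 in the treated pools, a log2 difference of 2.23 (limma adjusted p = 0.19). Lama4, a laminin chain of vascular basement membrane, read 319, below the floor and 128 in the control. In the treated pools it read 579, 405 and 957, a difference of 1.88, or 0.94 with the floor at the 35th percentile. The saline control pools read 444, 356 and 514 for Lama4. Ccn1 had 1.215 with the floor at the 50th percentile. Foxo4, Gkap1, Kcnj9, Myg1 and Mvd had differences of 2.37, 2.29, 2.10, 1.94 and 1.83, each with 1 drug control pool at the floor. With the floor at the 50th percentile Foxo4 had 1.37, Gkap1 0.60 and Mvd 0.52. Myg1 had 0.71 with it at the 35th percentile. Kcnj9 moved less, from 1.46 to 2.70 over all settings but the deposited values.

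The 15 largest differences below 0 came mostly from dim probe sets. Dazl, an RNA-binding protein of germ cells, read 296, 409 and 477 in the control and below the floor, 158 and 113 in the treated pools, a log2 difference of -1.63 and, at 0.217, the lowest limma adjusted p of the 15. Adipor1, an adiponectin receptor, was brighter, at 1868, 1799.6 and 1901 in the control and 972, 549 and 1227 in the treated pools, a log2 difference of -1.10 with tight controls. Star, which carries cholesterol into mitochondria, read 827, 784 and 928 in the control and 339.5, 366 and 379 in the treated pools, tight in both groups, a difference of -1.23 (limma adjusted p = 1). Plk4, the kinase of centriole duplication, read 558, 727 and 845 in the control and 372, 233 and 456 in the treated pools, a difference of -1.04. Kcna5, a potassium channel, read 1198, 1224 and 766 in the control and 346, 227 and 534 in the treated pools, a difference of -1.58. Tcf25 read 3635, 3885 and 5952 in the control and 2489.6, below the floor and 1662 in the treated pools, where treated pool 2 at the floor made most of a difference of -2.51, which was -1.11 without that pool. The other 9 (Krt6a, Vdr, Cd5l, Tchh, Xiap, Etf1, Gpr83, Antkmt and Rfc5) had differences of -1.84 to -1.12. Each of these moved by over 1.5 times with a higher floor, as did those of Dazl, Star, Kcna5 and Tcf25. Dazl had -0.32 with the floor at the 35th percentile. With it at the 50th percentile Star had -0.033, Kcna5 -0.32 and Tcf25 -1.52.

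The response was then set beside that of mice without the drug, 3 ischemic against 3 saline control pools. The 2 comparisons share no array, only the estimate of the spread. Without the drug 22 probe sets passed, all higher (0.214% of those tested), and the 9 that rose with the drug were all among them. Of the 22, 20 were also higher with the drug, 19 of them with an unadjusted p under 0.05. For the difference between the 2 responses 0 probe sets passed in limma (0% of those tested), while 213 had an unadjusted p under 0.05. The log2 differences of the 9 without and with the drug were 4.64 and 4.54 for Hspa1b, 4.30 and 4.12 for Hspa1a, 2.20 and 1.95 for Dnajb1, and 1.88 and 1.71 for Bag3. The chaperones thus differed between responses by less than 1 SE of that difference, whose SE was 0.72, 0.60, 0.40 and 0.35. Fos had 3.37 and 2.95, Egr1 1.89 and 1.88, Nr4a1 1.79 and 1.92 and Gadd45g 2.00 and 1.97. Atf3 had 3.59 and 2.74, a difference of -0.85 (SE 0.34) with an unadjusted p of 0.0298 and an adjusted p of 1. These intervals are wide, and equal responses are not shown by them.

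**Figure D4:**
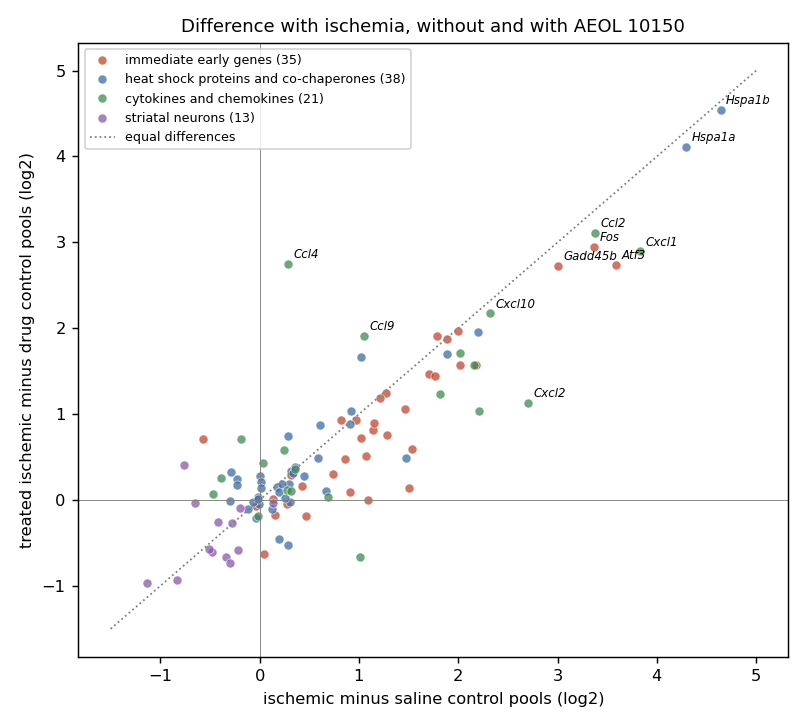
Log2 difference of treated ischemic minus drug control pools (vertical) against that of ischemic minus saline control pools (horizontal), 1 point per gene of 4 lists; the dotted line marks equal differences. Hspa1b, Hspa1a, Ccl2 and Fos lie high on both axes, Ccl4 is at 2.75 with and 0.28 without the drug, and the striatal genes lie mostly below 0 on both. For Ccl4 the saline controls read 4276, 1781 and 481, while drug control pools 2 and 3 lay at the floor. Its difference between responses had an unadjusted limma p of 0.0868.

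The lists were set side by side in the same way, as median log2 differences without and then with the drug. Lymphocyte genes had 0.29 and -0.41, the widest gap of all lists, and red blood cell genes 0.29 and -0.13. Immediate early genes had 1.14 and 0.75, and neutrophil genes 0.54 and 0.20. The heat shock list had 0.27 and 0.20, cytokines 0.69 and 0.71, and the NF-kB list 0.32 and 0.26. Antioxidant genes had -0.030 and 0.16, and striatal genes -0.42 and -0.57. These list differences were not tested. Single inflammatory genes with a larger value without the drug included Icam1 (2.42 and 1.22), Nfkbiz (1.68 and 0.89), Tnfaip6 (2.25 and 1.44) and S100a8 (2.15 and 0.55), while Socs3 had 1.20 and 1.72 and Cd14 1.07 and 1.17. Gpx3 lay on opposite sides of 0, at -0.43 without and 0.58 with the drug, as did the astrocyte gene Fabp7, at -0.44 and 0.73. With the drug the Fabp7 groups overlapped. Its treated pool 1, which needed no rescaling, differed from the drug control mean by 0.19, and the rescaled pools 2 and 3 by 1.19 and 0.81. None of these differences between responses passed the adjusted threshold.

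The smallest unadjusted p values for that difference belonged in part to genes whose saline and drug control pools already differed. Gfpt2, an enzyme of hexosamine synthesis, read 372, 411 and 378 in saline control and 1099, 1287 and 1325 in ischemic pools without the drug. With the drug it read 1648, 1912 and 1470.0 in control and 1534, 1311 and 834 in ischemic pools, so both groups given the drug and the untreated ischemic pools were high beside the saline controls. Its 2 responses were 1.67 and -0.49, a difference of -2.16 (SE 0.33, limma adjusted p = 0.307). Aldh1a3, a retinaldehyde dehydrogenase, was at the floor in all 6 pools given the drug and in all saline control pools, and read 324, 429 and 342 in the ischemic pools without the drug. The difference between responses was -1.73 (adjusted p = 0.155), with a spread that the floored values make too small. Esr1, the estrogen receptor, read 329, 216 and 262 in the drug controls and at most 133 on the 9 other pooled arrays, where most values lay below the floor. In the other direction Cyp1b1, a cytochrome P450 of vessels, read 314, 215 and 895 in the treated ischemic pools and was below the floor in every pool of the drug controls. It read 402, 597 and 201 in saline controls and 256 in ischemic pool 1, the other ischemic pools lying at the floor. Acan, the aggrecan of perineuronal nets, and Lama4 had differences between responses of 2.34 and 2.54, Zcchc3 of 1.44, and Ccna2 (cyclin A2) of -2.17. The probe sets without a gene symbol were 100359_at at 1.74 and 162361_at at -3.27.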

How the data were processed

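Intensities on a linear scale, 1 per probe set and array, were deposited by the authors for 17 arrays with 12488 probe sets; no source used here names their software or scaling. Groups follow the sample titles. Each array was scaled to a mean of 2500 between its 2nd and 98th percentiles. Lower values were raised to a floor of 109.5 (the 25th percentile over the 12 pooled arrays after scaling), and log2 values were used. A difference against floored values can understate the change, but 1 floored pool among brighter ones can also enlarge it. That of Foxo4 was 2.37, and 0.95 without drug control pool 1, which lay at the floor. The 66 array controls were left out. The 10259 probe sets that exceeded the floor on 3 or more of the 12 pooled arrays were tested. A linear model in limma 3.58.1 (R 4.3.3) was fitted to all 12 pooled arrays in 4 groups, which share the spread (8 residual and 2.23 prior degrees of freedom), with two-sided tests and Benjamini-Hochberg adjustment over all probe sets at 0.05. The fit was checked on simulated data. An exact permutation test of 3 against 3 pools cannot go below p = 0.1 and was not made per gene. The labels do not say that pools came from separate experiments, so the p-values measure the spread between pools.

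The platform annotation gives 1 gene symbol for 10855 probe sets, several for 396 and none for 1237, and 10839 symbols were kept or updated by Entrez number through RefSeq. For gene lists the brightest probe set stood for each of 7280 genes, and a list is described by counts and its median, with no test. The named genes are all those past the threshold, the 15 largest differences in each direction among the rest (1 symbol, no overlap, unadjusted p under 0.05, both means and at least 5 of 6 values above the floor), the list members with an unadjusted p under 0.05 (or the 3 lowest) and the 5 smallest unadjusted p values in each direction of the difference between responses. Other list members and S100a8 were named after their values were seen. The members, lists and rules were chosen with earlier results of these data known. The groups share replicate numbers 1 to 3, whose meaning the labels do not give. Between drug control and treated ischemic pools, deviations of same-numbered pools correlated at 0.213, 0.401 and -0.113. Those of pools with different numbers ran from -0.382 to 0.234. The labels do not call the numbers pairs, so the main fit left them out, and with them any effect that same-numbered pools share. With the number as a block, 630 probe sets had an unadjusted limma p under 0.05, against 353 without it. What the numbers share across the 4 groups was not tested. Alternatives were other scalings, floors, filters, fits and groupings, and leaving out each pool. The single brains entered no test.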

Additional observations from a re-analysis of the deposited data

Results flagged for a closer look

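The 5 single brains with ischemia and AEOL 10150 entered none of the comparisons above, and were set beside the drug control pools for the 9 probe sets that rose. Each was above the highest drug control pool in 5 of 5 brains. The 9 were called for being high against these same control pools, so that outcome was partly set by the choice. The share of all probe sets with such a result was not counted. The mean of the brains exceeded the drug control mean, on the log2 scale, by 4.53 for Hspa1b, 4.11 for Hspa1a, 2.07 for Dnajb1, 1.86 for Bag3, 2.84 for Fos, 2.76 for Atf3, 1.93 for Egr1, 1.82 for Nr4a1 and 1.7 for Gadd45g. Between brains the log2 value of Atf3 ran from 11.86 to 13.16 and that of Bag3 from 11.32 to 12.51, while that of Hspa1b ran from 15.79 to 16.09 and that of Nr4a1 from 12.53 to 12.84. The labels do not say whether these brains are also in the pools, so they are no independent replication, and all 5 arrays needed rescaling by factors of 11.9 to 19.34.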

How the results depend on the processing

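The 9 probe sets called higher became 17 and 14 with the floor at the 50th and 35th percentile and 12 with an intensity trend, each holding all 9. Quantile normalization gave 10 (8 of the 9), median scaling 8 (5 of the 9), no filter on low values 9 (7 of the 9), groups from the descriptions 6 (all among the 9), a fit of the 6 arrays alone 4 (2 of the 9), and leaving out the arrays whose title and description differ 3 (all among the 9). Leaving out any 1 of the 6 pools gave 1 to 6, and in 1 case (drug control pool 2, 5 called) a probe set outside the 9 was among them. With the replicate block 12 were called: 8 of the 9, without Bag3 (limma adjusted p = 0.0634), and also Junb (0.0432), Ier2 (0.0186), Phlda1 and the second Atf3 probe set. The numbers were not read as pairs, and not every pool correlated best with its own number. With the values as deposited, where treated pools 2 and 3 are lower by construction, 0 were called higher and 6935 lower, the median of all probe sets was -2.48, and Egr1 (-0.75), Gadd45g (-0.66), Nr4a1 (-0.72), Dnajb1 (-0.68) and Bag3 (-0.92) reversed. Without a filter on low values 1 probe set was called lower, and 1 (instead of 0) for the difference between responses. The causes were not tested. Atf3 passed in 16 of 16 settings with one scale for all arrays, Hspa1a in 12, Hspa1b in 11, Egr1 in 10, Gadd45g in 8, Fos and Nr4a1 in 7, Dnajb1 in 5 and Bag3 in 4, with no change of sign in any. Apart from the deposited scale, list medians changed sign in 14 of 459 cases: cell death (5), red blood cells (3), proteasome (3), and 1 each for neutrophil, oxidative phosphorylation and thalamic genes. Of 120 named probe sets that were not called, 46 moved by over 1.5 times with a higher floor and 38 on leaving out 1 pool, as did 0 of the 9 called. The floor, at which 24.6% to 25.3% of each array's values lie, limits what can be said of dim genes.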
